A study of Mus musculus with 12 samples.

Results

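The genes described here encode the subunits of the proteasome, measured in myeloid cells of the mouse brain. They were taken by name, as every gene whose symbol begins with Psma, Psmb, Psmc, Psmd or Psme followed by a digit and is no pseudogene, with at least 20 unique molecular identifiers (UMIs, each standing for 1 captured transcript) over the 12 libraries. Of 31053 genes listed, 45 symbols matched and 44 were kept. Psmb11, the thymus-specific catalytic subunit, was outside the minimum with 1 UMI, and the lowest genes inside it were Psmc3ip with 136 UMIs and Psma8 with 220. Psmc3ip shares the symbol pattern but encodes a protein of meiotic recombination and no subunit, and it is counted with the 44 and grouped with none of the subunits.

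The proteasome is the protease that degrades proteins tagged with ubiquitin. Its core particle is a stack of rings of alpha (Psma) and beta (Psmb) subunits, in which Psmb5, Psmb6 and Psmb7 carry the catalytic sites, and a regulatory particle built of ATPases (Psmc) and other subunits (Psmd) recognises, unfolds and feeds in the substrate. In immune cells, and in most cells under interferon, Psmb8, Psmb9 and Psmb10 can take the places of Psmb5, Psmb6 and Psmb7 to form the immunoproteasome, and the activator formed by Psme1 and Psme2 can cap the core. Both changes are known to alter the peptides that reach major histocompatibility complex (MHC) class I molecules, and microglia, the resident macrophages of the brain, are among the brain cells that express immunoproteasome genes.

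The study asked how the way in which a brain is taken apart changes the transcripts found in its cells. Cells positive for CD45 and CD11b were sorted from whole brain, and each library came from 1 male mouse of the inbred strain C57BL/6J at postnatal day 90. The 4 preparations, with 3 mice each, were cold Dounce homogenization without inhibitors (DNC-NONE) or with them (DNC-INHIB) and enzymatic digestion without inhibitors (ENZ-NONE) or with them (ENZ-INHIB). The inhibitors were actinomycin D and triptolide, which block transcription, and anisomycin, which blocks translation, and only the enzymatic digestion was carried out warm. The labels also give 2 batches that hold 6 libraries each and samples of all 4 preparations. In batch 1 were replicate 1 of ENZ-INHIB, replicate 4 of DNC-INHIB, replicates 4 and 5 of ENZ-NONE, and replicates 1 and 2 of DNC-NONE, with the remaining libraries in batch 2.

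After the cell filters, 18826 of 28426 deposited cells were kept, between 853 and 2185 per library, with 1059783 to 3233159 UMIs per library. A list of 18 microglial markers summed to between 77433 and 84183 counts per 1000000 UMIs (CPM) in every library, whereas the sums were 45.6 to 315 CPM for border macrophages, 29.6 to 303 for monocytes and 207 to 2288 for neutrophils, the highest of these in DNC-NONE replicates 2, 1 and 3 respectively. Red blood cell markers were at 0 to 2.34 CPM and neuronal markers at 0.651 to 6.61 CPM. Of the barcode sequences, 503 (1.80%) occurred in more than 1 library, with 2 to 16 shared by any pair. Levels below are CPM in the summed cells of a library. Each UMI is read at the 3' end of 1 transcript, so levels need no scaling by gene length. In summed cells, fewer cells of a type and less RNA per cell cannot be told apart.

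All 44 genes were found by identifier in the GENCODE annotation of GRCm38 (mm10), on 16 chromosomes. The genes that the immune forms add lie in 3 places. Psmb9 (chr17:34181987-34187764, minus strand) and Psmb8 (chr17:34197721-34201454, plus strand) are separated by 9956 bases within the MHC region. Most of these belong to Tap1, which encodes a subunit of the peptide transporter of MHC class I, and whose exons overlap those of Psmb9 by 212 bases on the other strand. Psme1 (chr14:55578123-55581529, plus strand) and Psme2 (chr14:55587441-55591113, minus strand) are neighbours, 5911 bases apart, and Psmb10 lies alone (chr8:105935735-105938444, minus strand). Exons of 2 genes, Psmd1 and Psme2b, are overlapped by another gene on their own strand and exons of 11 by one on the other strand. Psme2b is a near copy of Psme2 on another chromosome, and 70.7% of the 31-base words in the last 300 bases of Psme2 also occur in it, so the counts of these 2 genes are uncertain.

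The start-site windows of these 5 genes, from 250 bases before to 50 bases after the start, are printed since they are the genes that rose together in interferon-responding cells. They come from RefSeq (GRCm38.p6), which gave a window for 37 of the 44 genes. For Psmb8, Psmb9 and Psme1 the whole window lies within the GENCODE gene span given above. Matches, their absence and their positions therefore hold for the RefSeq start alone. Capitals mark a match, on either strand, to the gamma-activated site TTCNNNGAA or to the interferon-stimulated response element, GAAA and GAAA with any 2 bases between (TTTC and TTTC with 2 between on the other strand). Neither motif contains the other. The windows lie at chr17:34197945-34198244 (plus), chr17:34187281-34187580 (minus), chr8:105938343-105938642 (minus), chr14:55578244-55578543 (plus) and chr14:55591052-55591351 (minus), and each is written 5' to 3' on the strand of its gene.
Psmb8: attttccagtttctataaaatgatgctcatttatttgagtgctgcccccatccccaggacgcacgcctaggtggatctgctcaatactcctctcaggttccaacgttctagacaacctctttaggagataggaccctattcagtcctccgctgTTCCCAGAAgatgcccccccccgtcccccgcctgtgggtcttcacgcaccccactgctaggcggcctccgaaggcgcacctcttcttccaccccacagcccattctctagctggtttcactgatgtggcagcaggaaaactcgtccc
Psmb9: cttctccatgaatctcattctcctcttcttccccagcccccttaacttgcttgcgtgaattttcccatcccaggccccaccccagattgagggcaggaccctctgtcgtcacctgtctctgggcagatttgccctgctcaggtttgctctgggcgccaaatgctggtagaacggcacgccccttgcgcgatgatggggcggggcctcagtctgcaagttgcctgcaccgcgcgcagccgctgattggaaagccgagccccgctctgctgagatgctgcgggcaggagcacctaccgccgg
Psmb10: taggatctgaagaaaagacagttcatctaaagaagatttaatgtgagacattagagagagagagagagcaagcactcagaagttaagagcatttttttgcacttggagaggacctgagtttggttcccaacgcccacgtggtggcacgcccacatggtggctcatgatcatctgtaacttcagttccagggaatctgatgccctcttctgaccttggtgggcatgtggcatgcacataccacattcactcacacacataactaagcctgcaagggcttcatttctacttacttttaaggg
Psme1: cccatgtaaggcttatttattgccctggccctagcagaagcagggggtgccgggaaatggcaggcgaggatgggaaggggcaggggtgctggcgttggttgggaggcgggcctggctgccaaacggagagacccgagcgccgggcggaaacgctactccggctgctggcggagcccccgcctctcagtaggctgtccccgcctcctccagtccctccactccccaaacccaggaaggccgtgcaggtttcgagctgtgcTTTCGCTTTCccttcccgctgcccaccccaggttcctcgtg
Psme2: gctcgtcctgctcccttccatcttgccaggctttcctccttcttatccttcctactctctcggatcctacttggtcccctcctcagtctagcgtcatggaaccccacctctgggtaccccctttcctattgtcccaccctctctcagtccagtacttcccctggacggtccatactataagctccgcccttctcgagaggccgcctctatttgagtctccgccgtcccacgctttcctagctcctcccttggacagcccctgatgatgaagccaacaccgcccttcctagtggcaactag
Psmb8 held TTCCCAGAA, with its first base 97 before the start, and Psme1 held TTTCGCTTTC from base 10 of the transcript. RefSeq gave 2 overlapping windows for Psme2, of which the upstream one is printed. No match was found in the windows of Psmb9 and Psmb10 or in either window of Psme2. Over all 27025 genes with windows of this length, the first motif occurred in 9.55%, beside 2 of the 37 (Psmb8 and Psmd2, 5.41%), and the second in 3.99%, beside 4 of the 37 (Psmb3, Psmd4, Psmd9 and Psme1, 10.8%). The antioxidant response element TGACNNNGC (GCNNNGTCA), bound by factors that raise proteasome genes under stress, occurred in 14.0% of all genes and in 6 of the 37 (Psmb5, Psmb6, Psmc6, Psmd12, Psmd9 and Psme4, 16.2%).

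Together the 44 genes made up 0.521% of all UMIs, or 5209 CPM. The 15 constitutive core genes, with Psma8 counted among them, summed to 2230 CPM (42.8% of the UMIs of the 44). The 20 genes of the regulatory particle, which here and below include its 3 assembly chaperones, summed to 2087 CPM (40.1%). The 3 immunoproteasome genes summed to 497 CPM (9.54%) and the 5 activator genes to 391 CPM (7.50%). Psmb8 was at 290.2 CPM the highest of the 44 in each of the 12 libraries and ranked 468 among all genes. Thus the most abundant proteasome transcript of these cells was an immunoproteasome subunit.

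Within the alpha ring, levels ran from 227 CPM for Psma7 to 108 CPM for Psma5, with Psma8, the alpha subunit known from the testis, far below at 7.11 CPM. Among the beta subunits without a catalytic site, Psmb2 (210.4 CPM), Psmb1 (209 CPM) and Psmb3 (196 CPM) lay close together and Psmb4 was at 63.9 CPM. The 6 ATPases of the regulatory base ranged from 95.1 CPM for Psmc6 to 178 CPM for Psmc3. Of the other base subunits, the ubiquitin receptor Psmd4 was at 133 CPM, and the scaffold subunits Psmd2 and Psmd1 were at 114 and 74.0 CPM. The lid ranged from 49.2 CPM for Psmd3 to 173 CPM for Psmd11 and holds the deubiquitinase Psmd14 at 64.9 CPM. The assembly chaperones of the base were lower, from 38.9 CPM for Psmd9 to 63.7 CPM for Psmd10. Of the activators, Psme2 (163 CPM) and Psme1 (125 CPM) were above the nuclear activator subunit Psme3 (51.6 CPM) and the large activator Psme4 (15.9 CPM). Subunits of one ring thus differed severalfold in transcript level.

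**Figure D1:**
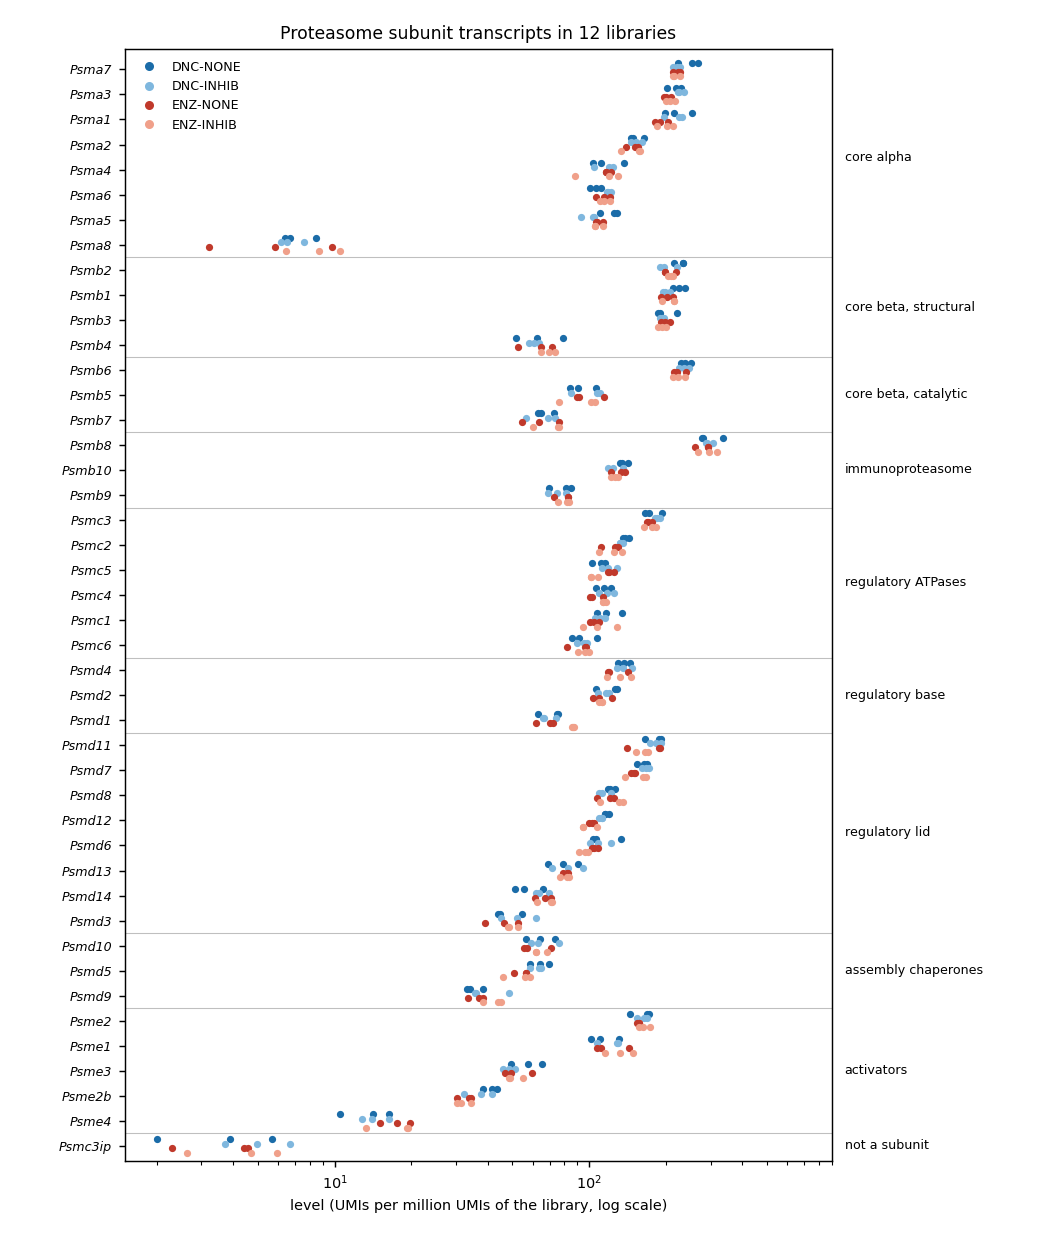
Level of each of the 44 genes (CPM, log axis) in the 12 libraries, ordered by role, with 1 point per library coloured by preparation. Psmb8 is the highest gene, at 260.5 to 336 CPM, and the 4 preparations lie over one another in nearly every gene.

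Each immunoproteasome gene was set beside the constitutive subunit whose place it takes. Psmb8 was at 279, 336 and 277 CPM in the DNC-NONE libraries, 308, 289 and 289 CPM in the DNC-INHIB libraries, 294, 294 and 260.5 CPM in the ENZ-NONE libraries and 267, 296 and 317 CPM in the ENZ-INHIB libraries. Its counterpart Psmb5 was at 76.5 to 114 CPM, so that Psmb8 made up 74.6% of the pair, from 69.6% to 80.0% in single libraries. The preparations overlapped throughout.

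Psmb9 was at 81.9, 75.8 and 83.4 CPM for ENZ-INHIB, 73.0, 82.7 and 82.8 for ENZ-NONE, 81.3, 68.8 and 74.8 for DNC-INHIB and 69.6, 84.9 and 81.0 for DNC-NONE. Its counterpart Psmb6 was at 214 to 252 CPM, and here the constitutive gene prevailed, with Psmb9 at 25.1% of the pair. Psmb10 was at 122, 127 and 129.8 CPM for ENZ-INHIB, 134, 122 and 138 for ENZ-NONE, 136, 119 and 124 for DNC-INHIB and 134, 142 and 132 for DNC-NONE. It made up 65.5% of its pair with Psmb7, which was at 54.7 to 76.4 CPM. In transcript counts the 3 pairs thus divided in favour of the immune form for Psmb8 and Psmb10 and of the constitutive form for Psmb9. The subunit proteins built into the core were not measured.

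Over the 6 catalytic genes the immunoproteasome share was 56.1% ± 1.70 for DNC-NONE, 55.1% ± 2.00 for DNC-INHIB, 56.0% ± 2.03 for ENZ-NONE and 56.1% ± 1.49 for ENZ-INHIB (SD, n = 3 each). ENZ-NONE differed from the other 9 libraries by 0.189 percentage points and enzymatic from Dounce libraries by 0.437 points, against a spread within preparations of 1.82 points (SD). With 1 library left out in turn, the first difference ran from -0.820 to 1.21 points, turning in sign, and the second from 0.0486 to 0.905 points. Within batch 1 the mean shares of the 4 preparations, in the order just given, were 56.8%, 57.4%, 57.0% and 57.3%, and within batch 2 they were 54.6%, 54.0%, 53.9% and 55.6%, each from 1 or 2 libraries. The share was therefore lower in batch 2 in every preparation.

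**Figure D2:**
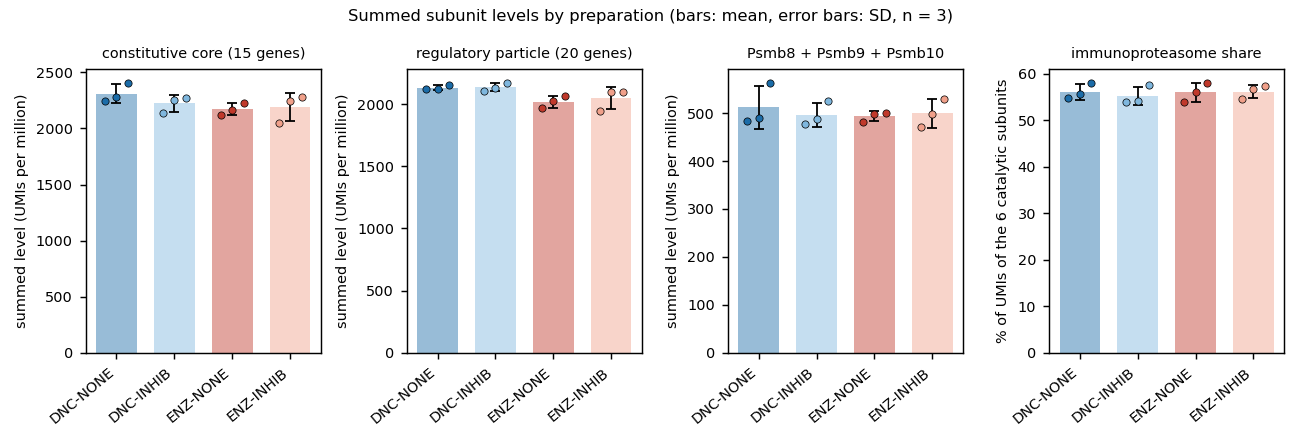
Summed level (CPM) of the constitutive core, the regulatory particle and the immunoproteasome genes by preparation. The last panel gives the immunoproteasome share of the 6 catalytic beta genes (%). Each has 1 point per library and the mean and SD of 3 libraries. The share lies between 53.9% and 58.0% in all libraries, and the preparations overlap in it. In the regulatory particle every Dounce library lies above every enzymatic library.

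The summed level of all 44 genes was 5347 ± 64.1 CPM for DNC-NONE, 5246 ± 87.6 for DNC-INHIB, 5068 ± 35.1 for ENZ-NONE and 5141 ± 258 for ENZ-INHIB (SD, n = 3 each). As a share of all UMIs this was 0.0192 points lower in enzymatic than in Dounce libraries (0.510% ± 0.0170 against 0.530% ± 0.00884, SD, n = 6 each), with a spread within preparations of 0.0141 points. The regulatory particle summed to 2132 ± 19.0, 2136 ± 33.5, 2019 ± 48.5 and 2049 ± 89.1 CPM in the same order. In this sum every Dounce library (2106 to 2172 CPM) lay above every enzymatic library (1946 to 2101 CPM), by a narrow margin. The sum itself was not tested. The immunoproteasome genes summed to 512 ± 44.3, 496 ± 25.2, 494 ± 10.8 and 499.5 ± 29.9 CPM. ENZ-INHIB replicate 1 was the lowest library of all for the 44 genes, at 4843 CPM.

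To ask whether single subunit genes responded to the preparation, the 4 preparations were compared in 6 pairs and in 3 combined contrasts, with edgeR's quasi-likelihood test over 9882 genes, which included all 44. A gene was called at an adjusted p under 0.05 over all genes tested. The pairs share libraries, so their results are not independent of each other. In ENZ-NONE against DNC-NONE, which compares the methods without inhibitors, 0.648% of all genes and 0 of the 44 were called. In ENZ-NONE against DNC-INHIB 0.88% of all genes were called, in ENZ-NONE against ENZ-INHIB 0.425%, in ENZ-INHIB against DNC-INHIB 0.152%, in ENZ-INHIB against DNC-NONE 0.101% and in DNC-NONE against DNC-INHIB 0%. Over the enzymatic against the Dounce libraries 1.56% of all genes were called, over libraries without against those with inhibitors 0.223%, and for the interaction of method and inhibitors 0.172%. None of the 44 was called in any of the 9. At such background shares, 0 of 44 is no result particular to these genes.

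At an unadjusted p under 0.05, edgeR gave 0, 0, 2, 1, 2 and 4 of the 44 genes in the 6 pairs, beside 8.60%, 9.55%, 5.22%, 4.72%, 8.39% and 10.5% of all genes, taken in the order ENZ-NONE against DNC-NONE, against DNC-INHIB and against ENZ-INHIB, then DNC-NONE against DNC-INHIB, then ENZ-INHIB against DNC-INHIB and against DNC-NONE. It gave 3, 1 and 2 in the method, inhibitor and interaction contrasts, beside 12.9%, 6.93% and 3.56% of all genes. DESeq2 also called 0 in each of the 9.

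The intervals of the differences show what could have been missed. In ENZ-NONE against DNC-NONE the 95% interval lay within 1.5-fold in either direction (a log2 fold change of 0.58) for 41 of the 44 genes and within 1.3-fold for 31. For enzymatic against Dounce, with 6 libraries on each side, it lay within 1.5-fold for 41 and within 1.3-fold for 40. The genes whose intervals ran beyond 1.5-fold there were the low-level Psma8, Psmc3ip and Psme4. The median log2 fold change of the 44 was -0.03 in ENZ-NONE against DNC-NONE and -0.02 in enzymatic against Dounce, beside 0.00 for all genes in each. By role, enzymatic against Dounce gave a median of 0.00 for the core (15 genes), -0.05 for the regulatory particle (20 genes) and 0.01 for the immunoproteasome.

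For the immunoproteasome genes the log2 fold change of enzymatic against Dounce was -0.01 for Psmb8 (95% interval -0.16 to 0.13), 0.09 for Psmb9 (-0.06 to 0.25) and 0.01 for Psmb10 (-0.13 to 0.15). Their counterparts gave 0.02 for Psmb5 (-0.21 to 0.25), -0.05 for Psmb6 (-0.18 to 0.08) and 0.07 for Psmb7 (-0.14 to 0.28). All of these intervals lie within 1.3-fold of no difference.

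**Figure D3:**
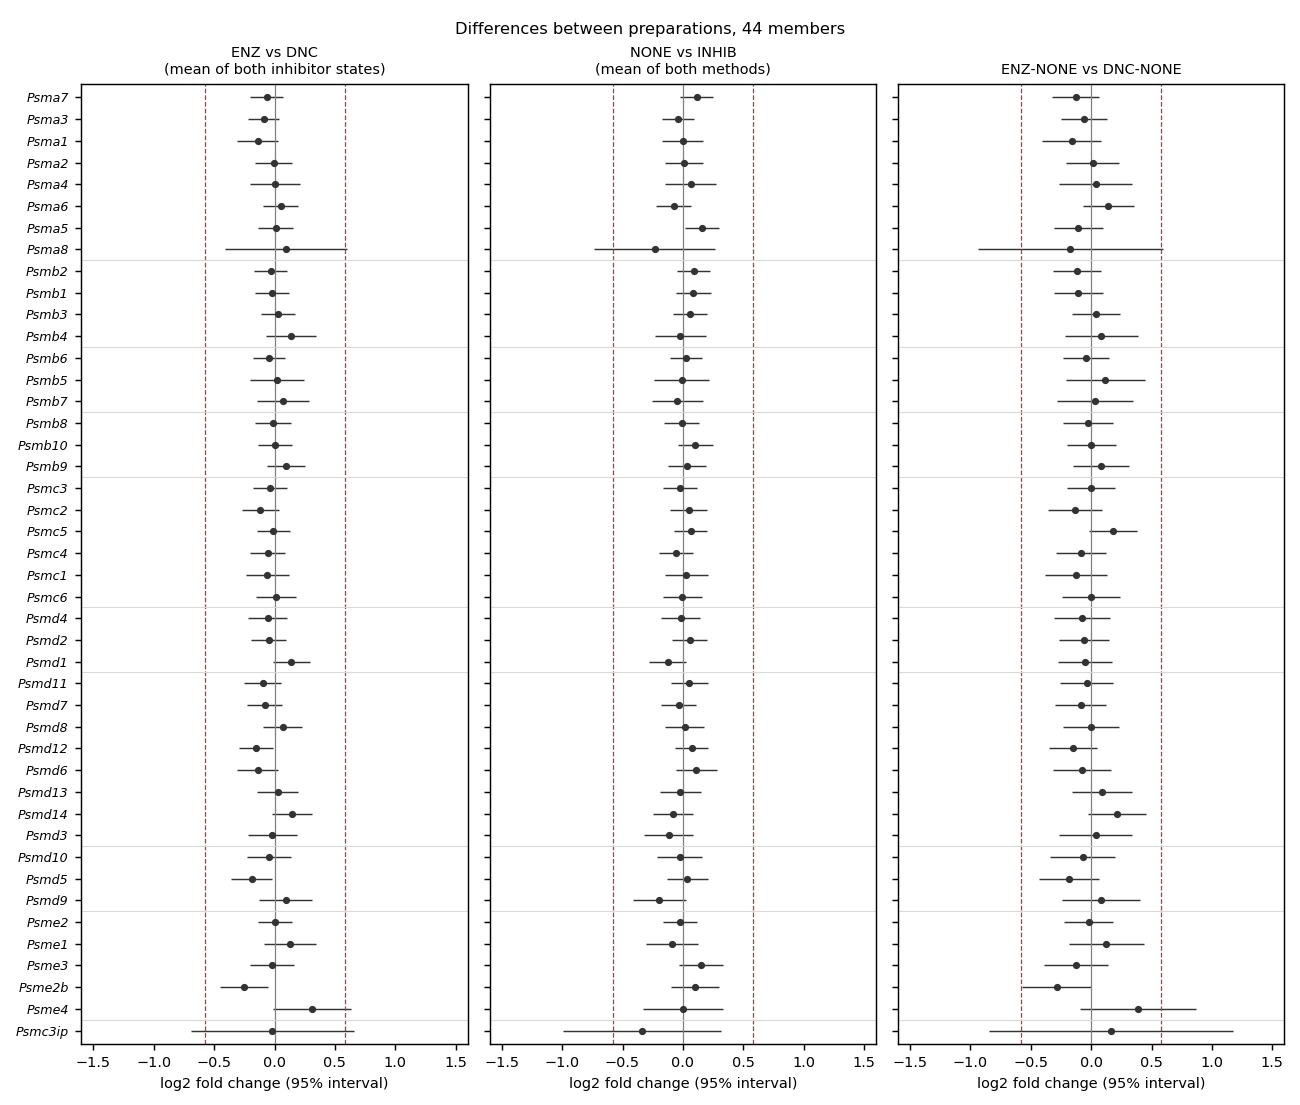
Log2 fold change of each of the 44 genes, as points with 95% intervals from edgeR. The comparisons are enzymatic against Dounce, without against with inhibitors, and ENZ-NONE against DNC-NONE. None was called at an adjusted p under 0.05, and intervals of 41, 42 and 41 genes, in that order, lie within 0.58 of 0.

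The gene nearest to a call in any of the 6 pairs was Psmd1, the large scaffold subunit of the regulatory base. It was at 86.2, 87.1 and 85.4 CPM for ENZ-INHIB, 70.2, 72.3 and 61.9 for ENZ-NONE, 65.6, 66.5 and 74.2 for DNC-INHIB and 75.6, 63.2 and 74.9 for DNC-NONE. The 3 ENZ-INHIB libraries were above all others. In ENZ-INHIB against DNC-INHIB the log2 fold change was 0.33 ± 0.10 (adjusted p = 0.285, ± gives the SE) and -0.31 ± 0.10 in ENZ-NONE against ENZ-INHIB (adjusted p = 0.527). Part of Psmd1 is overlapped by Gm21972 on the same strand. The ATPase Psmc5 had the opposite pattern, at 101 to 109 CPM in ENZ-INHIB and 119 to 125 CPM in ENZ-NONE, with a log2 fold change of 0.25 between them (adjusted p = 0.785).

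Psme2b, the near copy of Psme2, was at 30.2 to 34.5 CPM in the enzymatic libraries and 32.3 to 43.6 CPM in the Dounce libraries, and the groups overlapped. Its log2 fold change was -0.25 (adjusted p = 0.242) for enzymatic against Dounce and -0.36 for ENZ-INHIB against DNC-NONE, the largest of the 44 in that pair. Psme2 itself was at 145 to 174 CPM in all libraries. The alpha subunit Psma5 was at 110.5, 129 and 125 CPM in DNC-NONE and 103, 92.7 and 104 CPM in DNC-INHIB (log2 fold change 0.27, adjusted p = 0.893). The largest fitted changes belonged to genes of low level. Psme4 was 0.39 higher in ENZ-NONE than in DNC-NONE and 0.31 higher in enzymatic than in Dounce libraries, at 10.5 to 19.8 CPM. Psma8 (-0.50 in ENZ-NONE against ENZ-INHIB, 0.37 in ENZ-INHIB against DNC-INHIB, -0.54 in the interaction) and Psmc3ip (-0.36 in ENZ-NONE against DNC-INHIB, -0.52 in DNC-NONE against DNC-INHIB, -0.34 without against with inhibitors) had no called value, at 3.21 to 10.5 and 2.00 to 6.66 CPM. These values kept their sign but moved widely with 1 library left out. Psme4 ran from 0.23 to 0.60 and from 0.23 to 0.42, Psma8 from -0.85 to -0.19, from 0.18 to 0.52 and from -0.88 to -0.22, and Psmc3ip from -0.58 to -0.096, from -0.80 to -0.11 and from -0.48 to -0.14, in the order of the comparisons above.

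The genes varied little from library to library. Of the 44, 38 had levels between 50 and 350 CPM, and over the 12 libraries their median coefficient of variation was 7.80%, beside 10.1% for the 2898 other tested genes of that range. The spread relative to counting error (chi-square per degree of freedom, 1 where counting error is all) had a median of 1.49, beside 2.04 for the other genes, and 11 of the 38 (28.9%) exceeded 2, beside 51.6% of the others.

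Since the immunoproteasome share had followed the batch, the batches were compared across all genes as well, with the preparation in the fit. This comparison was added after the values were seen. Psmb5 is part of the immunoproteasome share that prompted it, so the values of Psmb5 are not independent of that observation. Of all genes 2.84% were called and 2.04% were called and higher in batch 2, and of the 44 genes 3 (Psmb5, Psme1 and Psma1) were called, all of them higher in batch 2. DESeq2 also called 3. The batches did not overlap in 2 of the 44 genes, 4.55%, and in 2.07% of all genes tested. At an unadjusted p under 0.05 there were 13 of the 44 (29.5%), beside 14.1% of all genes, and the median log2 fold change was 0.08, beside 0.00 for all genes.

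Psmb5, the catalytic subunit that Psmb8 replaces, was at 76.5 to 91.2 CPM in batch 1 (median 87.3) and at 102 to 114 CPM in batch 2 (median 107). The batches did not overlap, and the log2 fold change came to 0.39 ± 0.07 (adjusted p = 0.00221, SE after ±). Psme1 was at 102 to 115 CPM in batch 1 and 128 to 149 CPM in batch 2, again without overlap, with 0.35 ± 0.06 (adjusted p = 0.00389). Psma1 was at 182 to 216 CPM and 202 to 253 CPM, and its 0.25 ± 0.06 (adjusted p = 0.0208) was no longer called without DNC-NONE replicate 3 (0.22), DNC-INHIB replicate 4 (0.24), DNC-INHIB replicate 6 (0.24) or ENZ-INHIB replicate 1 (0.25). Psmb7 had a log2 fold change of 0.28 (adjusted p = 0.106). Psmb8, Psmb9 and Psmb10 had -0.01, 0.03 and 0.03. With the batch as a term of the fit, 0 of the 44 were called in each of the 9 comparisons of preparations.

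Of the genes that work around the proteasome, 3 lists were compared in the same way, and their counts stand for these lists alone. Of 15 tested genes for assembly factors and partners, 0 were called in the 9 comparisons of preparations, in which 0% to 1.56% of all genes were called. Of 6 tested regulators of subunit genes and 11 genes of MHC class I loading, 0 were called there either. In batch 2, the MHC class I genes B2m and Calr were called and higher, by 0.38 and 0.30, and 0 genes of the other lists were called.

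Cells were next divided within each library, to compare subunit genes between cell states of the same animal. The activation gate took cells with at least 4 of 19 genes of a dissociation list of the study, after each cell was thinned to 1000 UMIs. The list lacks Ccl3, Ccl4, Nfkbiz and Nfkbid, which the paper names in its signature from these sorted cells. From which samples of the study it was drawn was not settled here. No proteasome gene is in the list. The gate took 0.686% ± 0.286 of cells of ENZ-INHIB, 1.13% ± 0.330 of DNC-INHIB, 3.72% ± 4.61 of DNC-NONE and 38.0% ± 17.4 of ENZ-NONE (SD, n = 3 each). Within ENZ-NONE, the 1769 cells in the gate were compared with the other cells of the same 3 animals. Of 8395 genes tested 1.68% were called, and of 42 proteasome genes tested 0 were called by edgeR, with 2 (4.76%) at an unadjusted p under 0.05, Psma1 (-0.29) and Psmd13 (-0.39), beside 9.87% of all genes. The 44 genes summed to 4913 CPM in the gate and 5185 CPM outside it and were lower in the gate in all 3 animals.

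The interferon gate took cells with at least 3 of 12 interferon-stimulated genes (Ifit1, Ifit2, Ifit3, Ifit3b, Isg15, Irf7, Usp18, Oasl2, Rtp4, Ifi204, Ifitm3 and Rsad2) at the same thinned depth. None of the 44 genes is in the list. It took 229 cells (1.22%), between 12 and 37 per library, of which 98 were exactly at the minimum, and 233 further cells were 1 gene below it. Of the 229 cells, 44 also passed the border macrophage or monocyte gate and 28 the activation gate. The share of cells was 0.921% ± 0.194 for ENZ-INHIB, 1.13% ± 0.339 for ENZ-NONE, 1.23% ± 0.402 for DNC-INHIB and 1.67% ± 0.235 for DNC-NONE (SD, n = 3 each).

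In these cells the immune subunits were higher than in the other cells of the same animal. Paired by animal over the 12 libraries, edgeR called 15.3% of 2897 genes tested, and 8.22% were called and higher. Tested genes were those with at least 20 UMIs expected in the gate, which left 37 of the 44. Of these 37, 6 were called, all higher, and they were the 3 immunoproteasome genes, both genes of the interferon-inducible activator and the alpha subunit Psma7. The median log2 fold change of the 37 was 0.22, beside -0.09 for all genes tested.

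Psme2 was at 358 CPM in the gate and 160 CPM outside it, and higher in 12 of 12 animals, with 1.23 ± 0.17 on the log2 scale (SE after ±, adjusted p = 1.87e-08). Psme1 was at 272 and 123 CPM and higher in 9 of 12 animals, with 1.20 ± 0.20 (adjusted p = 4.23e-06). These genes encode the alpha and beta chains of one activator ring.

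Psmb8 was at 499 and 287 CPM and higher in 12 of 12 animals, with 0.84 ± 0.15 (adjusted p = 5.58e-06). Psmb9, at 132 and 76.9 CPM, and Psmb10, at 206 and 128 CPM, were each higher in 9 of 12 animals, with 0.83 (adjusted p = 0.0154) and 0.73 (adjusted p = 0.0115). Psma7, at 307 and 226 CPM, was higher in 10 of 12 animals with 0.51 (adjusted p = 0.0287). The constitutive counterparts Psmb5, Psmb6 and Psmb7 had 0.21, 0.23 and 0.10 and were not called (adjusted p = 0.684, 0.468 and 0.899).

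The sum of Psmb8, Psmb9, Psmb10, Psme1 and Psme2 was 1468 CPM in the gate and 776 CPM outside it. The ratio was 1.74 to 1.93 in the 3 DNC-NONE animals, 1.74 to 2.22 in DNC-INHIB, 1.91 to 2.07 in ENZ-NONE and 1.44 to 1.83 in ENZ-INHIB, above 1 in 12 of 12 animals. The 35 constitutive core and regulatory genes summed to 4532 and 4315 CPM, with ratios of 0.739 to 1.25 and above 1 in 8 of 12 animals. The immunoproteasome share of the 6 catalytic genes was 65.5% in the gate and 55.3% outside it, higher in 11 of 12 animals. Of 14 core genes tested all 14 lay above 0 and 1 was called, whereas of 18 regulatory genes 7 lay above 0 and 0 were called. At this number of cells the depth is small, with 46 UMIs of Psmb9 and 174 of Psmb8 in the gate.

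**Figure D4:**
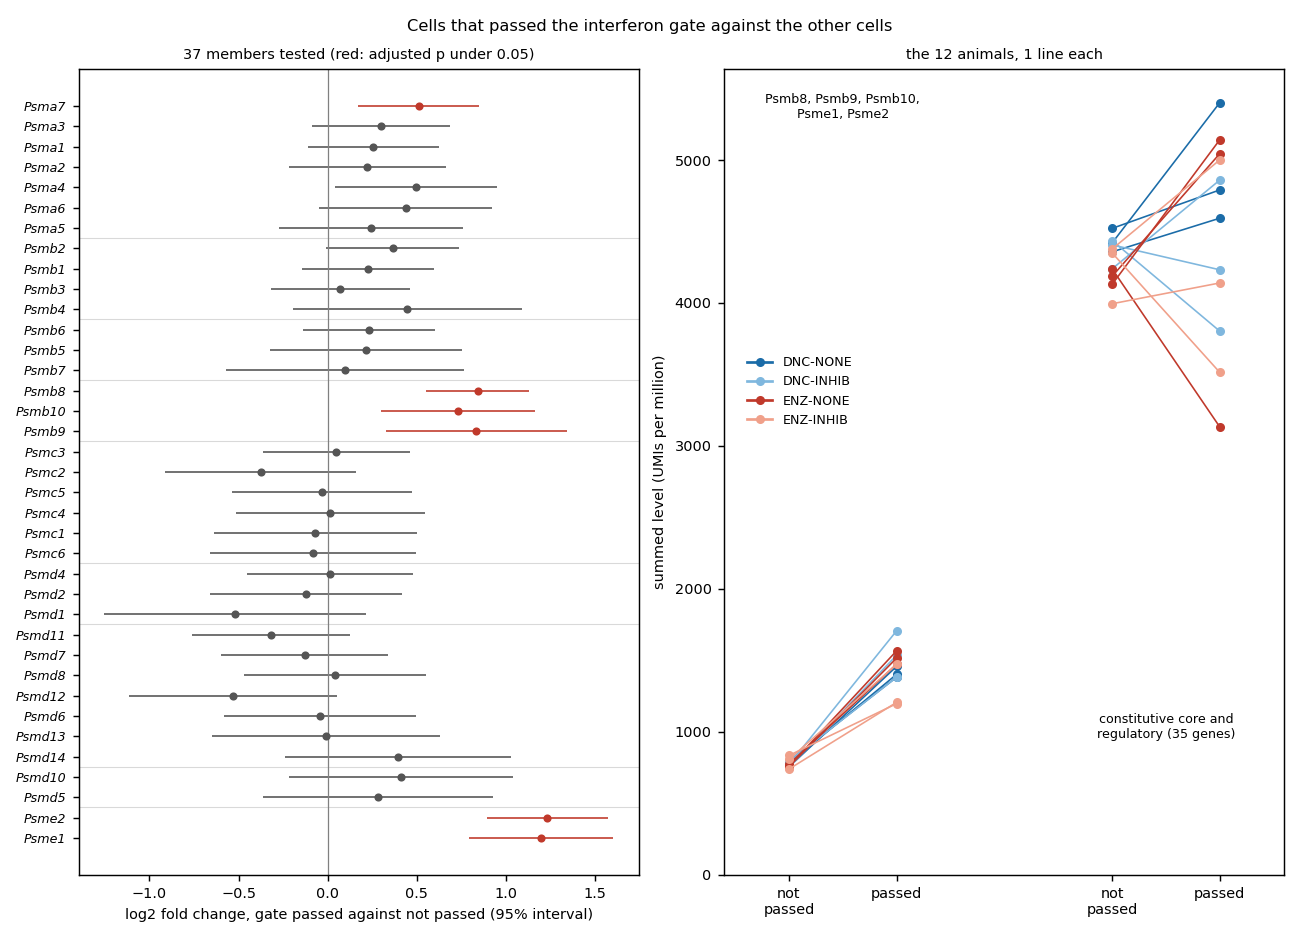
Level inside and outside the interferon gate in each of the 12 animals, as lines joining the values of 1 animal (CPM), for the sum of the 5 immune genes and of the 35 constitutive genes. The immune sum is higher inside the gate in 12 of 12 animals and the constitutive sum in 8 of 12.

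Psme1 and Psme2 were also called in every alternative run, and Psmb8 in every one except without the filter on low counts (0.34), under which the median of all genes was -0.67. Without the cells of the border macrophage and monocyte gates, Psmb8, Psme1 and Psme2 were called, and Psmb9 (0.72), Psmb10 (0.66) and Psma7 (0.32) were not. Psmb9 was not called without DNC-NONE replicate 1 (0.70) or ENZ-NONE replicate 6 (0.75), Psmb10 without ENZ-NONE replicate 6 (0.61), and Psma7 without DNC-INHIB replicate 4 (0.44). Doublets were not removed effectively, and their part in the result was not tested.

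In the same cells 8.22% of all genes tested were called and higher. Among partner genes there, 5 of 9 tested MHC class I genes were called, all higher. They were the heavy chains H2-K1 (1.63) and H2-D1 (1.41), the peptide transporter subunit Tap2 (0.79), the light chain B2m (0.69) and the loading factor Tapbp (0.54). Of 6 assembly factors and partners, Sem1 (1.18), a small lid subunit whose symbol lies outside the name rule, and Pomp (0.50), the chaperone of core assembly, were called.

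The border macrophage gate took 136 cells with at least 3 of 8 markers of the macrophages at the brain's borders. Of 1769 genes tested 35.1% were called, and of 29 proteasome genes tested 2 were called. They were Psmb2, a core beta subunit, at 327 CPM in the gate and 209 CPM outside it (log2 fold change 0.69, adjusted p = 0.00872, higher in 9 of 12 animals) and the lid subunit Psmd11, at 85.3 and 174 CPM (-0.97, adjusted p = 0.0166, higher in 2 of 12 animals). Without DNC-NONE replicate 1 neither was called (0.57 and -0.85), and Psmb2 was not called with other size factors (0.45). The regulatory particle summed to 1492 CPM in the gate and 2092 CPM outside it, lower in the gate in 12 of 12 animals, while the immunoproteasome share was 64.3% and 55.5%. Genes in general were lower in this gate, with a median log2 fold change of -0.23 over all genes tested, beside -0.42 for 13 regulatory genes. Psmb8, Psme1 and Psme2 had log2 fold changes of 0.41, 0.21 and 0.29 there and were not called (adjusted p = 0.111, 0.639 and 0.441). Of 8 MHC class I partner genes tested in this gate, 4 were called, all higher, beside the 35.1% of all genes called in either direction.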

How the data were processed

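A 10X Genomics 3' droplet kit was used for all libraries. The authors deposited raw UMI counts per gene and cell, 1 matrix per animal, made with Cell Ranger 3.0.0 against mm10 (GRCm38) per the submitters' processing notes and without normalization. Collapsing reads to UMIs removes PCR copies, and reads that fit several genes are not counted, which lowers near-identical genes such as Psme2 and Psme2b.

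Cells under 500 genes or 1000 UMIs, or above 10% mitochondrial UMIs, were dropped. A marker rule removed 4 doublets, too few to have worked, so most doublets remain. Counts were summed per animal and tested with edgeR 4.0.16 (R 4.3.3; quasi-likelihood, TMM, all 12 libraries in one fit, Benjamini-Hochberg adjustment over all genes tested), with DESeq2 1.42.0 as an alternative. Gates were read on cells thinned to 1000 UMIs, and each was fitted with the animal as a block on genes with at least 20 UMIs expected in the gate. Scripts were tested on simulated data.

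Named genes were the immunoproteasome genes and their counterparts, Psme1, Psme2, every gene called, the highest and lowest of each role, the largest change of each comparison, the genes at the 20-UMI limit and up to 4 partners a list. Psmd1, Psmc5 and Psma5 were chosen after their values were seen. The members, lists and gates were chosen with earlier results of these data known. Alternatives were other size factors, no low-count filter, the batch as a term, all barcodes, thinned libraries, fewer cell classes, other gates and leaving out each library. Library totals set the precision, and intervals cover counting error and the spread between animals in these samples only. Matching was done in Python 3.11.15. A list of ubiquitin genes and some other partner genes are not reported here, and the counts of partner genes do not cover them.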

Additional observations from a re-analysis of the deposited data

Results flagged for a closer look

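In groups of 6 libraries formed by method or by inhibitors, 4 sums stood apart from their group by Dixon's test, of 56 groups tested, and chance alone flags about 1 group in 20. The groups share libraries and some sums contain others, so the flags are not independent of each other. ENZ-INHIB replicate 1 was low among the libraries with inhibitors in the summed ATPases of the regulatory base (676 CPM, nearest library 743), in the whole regulatory particle (1946 CPM, nearest 2099) and in all 44 genes (4843 CPM, nearest 5145). DNC-NONE replicate 2 was high among the libraries without inhibitors in the 3 immunoproteasome genes (563 CPM, nearest 501).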

How the results depend on the processing

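None of the 44 genes was called in any of the 9 comparisons of preparations under any alternative. The interferon gate gave 3 called genes with the gate 1 gene higher and 3 without border macrophage and monocyte cells, beside 6, and 4 to 6 when 1 library was left out. The border macrophage gate gave 19 without a low-count filter, beside 2, with a median of all genes at -0.98, and 0 to 2 when 1 library was left out. Turned in sign were Psmb10 in enzymatic against Dounce (-0.084 in thinned libraries, -0.0069 without the 5% of cells with most UMIs, -0.023 to 0.036 with 1 library left out) and Psmb8 there (0.035 with all barcodes, 0.0019 without macrophage and monocyte cells, -0.047 to 0.031 with 1 library left out). Without a filter, Psmb5, Psmb6 and Psmb7 in the interferon gate turned to -0.27, -0.27 and -0.39 and Psmb2 in the border macrophage gate to -0.062. Psmb6 was -0.026 with the interferon gate 1 gene higher, and Psmb7 ran from -0.15 to 0.23 with 1 library left out. The cause was not tested, except that without a filter thinly counted genes enter the scaling. Same-numbered samples deviated together with r between -0.08 and 0.15, not above 0.1 in every pair. So few and small correlations cannot exclude a pairing by number. Each library came from its own mouse, and the main fits used no pairing by number. With the replicate number as a block, 0 of the 44 genes were called, as without it, and the largest fitted changes were -0.36 for Psme2b in ENZ-INHIB against DNC-NONE and -0.35 for Psmc3ip in ENZ-NONE against DNC-INHIB. Depth is small in the gates of 229 and 136 cells.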

Other observations

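The monocyte gate (at least 3 of 8 markers) took 86 cells from 11 libraries, too few to fit, and its values are given as a description. The 44 genes summed to 8235 CPM in these cells and 5179 CPM in the other cells, higher in 11 of 11 libraries. The core made up most of the difference, at 4347 and 2213 CPM and higher in 11 of 11, while the regulatory particle was at 2109 and 2085 CPM and higher in 5 of 11. The immunoproteasome genes summed to 929 and 490 CPM and Psme1 with Psme2 to 716 and 282 CPM, each sum higher in 11 of 11. The immunoproteasome share of the 6 catalytic genes was 62.9% and 55.3%, higher in 8 of 11. Cells that also passed the interferon gate were not taken out of these sums. Whether the immune sum is higher in monocyte-gate cells outside the interferon gate was therefore not tested.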
